A study of Mus musculus with 2 samples.

Results

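Cytochrome c and several subunits of cytochrome c oxidase have forms that are made mainly in testis germ cells beside forms made in most tissues. In mouse testis RNA, 10 genes that form 5 pairs of isoforms were followed. The members were the rows of the deposited table whose Entrez gene ID maps to Cyct, Cycs, Cox6b2, Cox6b1, Cox7b2, Cox7b, Cox8c, Cox8a, Cox4i2 or Cox4i1, which are 10 of 44002 rows. All 10 had a row. They were chosen by gene name and not by a measured value, although earlier results of these data were known.

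The data were 2 poly(A) RNA-seq libraries from BALB/c mouse testis taken on postnatal day 45, 1 from mice exposed to bisphenol A (BPA, a building block of polycarbonate plastics that can bind estrogen receptors) and 1 from control mice, whose library carries no treatment label. How much BPA was given, by which route and for how long is not stated in the labels. Each library was made from a mix of 3 samples, which may or may not be 3 animals, so the spread between animals was not measured and no test between BPA and control was possible. The unit is CPM, in which the reads of each library are scaled to the same total, and CPM per kb divides them by the summed length of the gene's annotated exons, so that levels of different genes can be compared. The CPM scale stood for 45377693 reads in BPA testis and 41801885 reads in control testis. Intervals printed below are exact and cover the counting of reads only, at 95% confidence.

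Cytochrome c is a small heme protein in the space between the mitochondrial membranes that carries electrons from the cytochrome bc1 complex to cytochrome c oxidase, the enzyme that passes them to oxygen. The oxidase has a mitochondrially encoded catalytic core surrounded by nuclear-encoded subunits, and several of these subunits exist as isoforms made in different tissues. Cytochrome c that leaves the mitochondria also binds Apaf1 and starts caspase activation. In the testis, Cyct is made in meiotic and later germ cells, while Cycs is made in earlier germ cells, in somatic cells such as Sertoli and Leydig cells, and in most other organs. In bulk tissue a smaller number of cells of a type and less RNA per cell cannot be told apart.

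**Figure D1:**
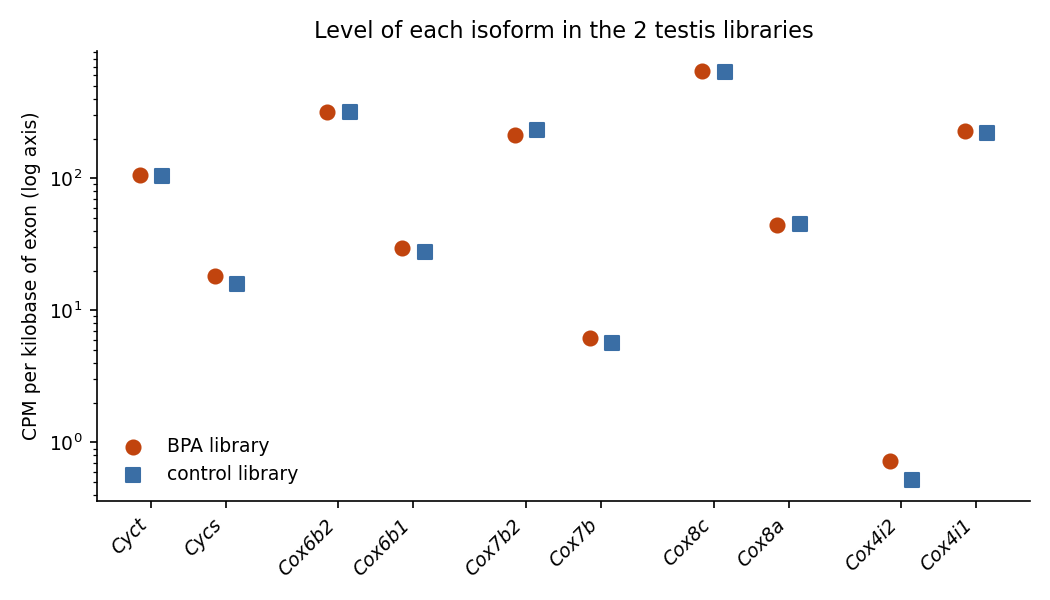
Level of each of the 10 genes in CPM per kb of annotated exon on a log axis, with the BPA and the control library as separate points and pairs set next to each other. Cox6b2, Cox7b2 and Cox8c lie far above Cox6b1, Cox7b and Cox8a in both libraries, whereas Cox4i2 lies far below Cox4i1. Cyct lies above Cycs by a gap that depends on the exon lengths, 655 and 3404 bases. By reads Cyct and Cycs are close, with 52.8% of the pair from Cyct in BPA testis and 55.7% in control testis. The 2 libraries lie side by side at similar heights for the 9 genes listed above 0.

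Ordered by CPM per kb, Cox8c was highest of the 10 in both libraries, followed by Cox6b2. Cox4i1 and Cox7b2 came next and changed places between the libraries, with 228 and 212 CPM per kb in BPA testis and 222 and 231 CPM per kb in control testis. Below them the order was Cyct, Cox8a, Cox6b1, Cycs, Cox7b and Cox4i2 in both libraries. Of the 16775 genes ranked by mean CPM per kb, Cox8c stood at rank 42 and Cox6b2 at rank 138. Cox4i1 and Cox7b2 were at ranks 225 and 233, Cyct at 640, and the general forms at 1604 for Cox8a, 2350 for Cox6b1, 3601 for Cycs and 7023 for Cox7b. Cyct, Cox6b2, Cox7b2 and Cox8c thus each ranked above the general partner, and Cox4i2, under 1 CPM, was not ranked. Divided by the longest transcript instead, the means over both libraries gave the same order with Cox4i1 above Cox7b2, at 456 and 221 CPM per kb.

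Cyct encodes testis cytochrome c and lies on the minus strand of chromosome 2 (GRCm38, chr2:76353942-76360453), and Cycs encodes the cytochrome c of most tissues and lies on the minus strand of chromosome 6 (chr6:50562563-50566569). Their coding sequences are both 315 bases long and identical at 240 aligned bases, or 76.2%. The stretch from coding base 7 to 66 is shown because it holds the codons of the heme attachment site. Both lines are taken from GENCODE M21 transcripts (GRCm38), 5′ to 3′ on the coding strand, and capitals mark the 7 bases at which they differ.

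Cyct: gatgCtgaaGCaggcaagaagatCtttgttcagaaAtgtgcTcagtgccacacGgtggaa
Cycs: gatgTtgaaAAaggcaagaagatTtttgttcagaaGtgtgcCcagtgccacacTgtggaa

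Cyct had 69.2 CPM (3142 reads) in BPA testis and 67.8 CPM (2836 reads) in control testis. Cycs had 61.8 CPM (2804 reads) in BPA testis and 54.0 CPM (2257 reads) in control testis. By reads the testis and general forms were thus close, with 52.8% of the pair's reads from Cyct in BPA testis (interval 51.6% to 54.1%) and 55.7% in control testis (interval 54.3% to 57.1%). The annotated exons of Cycs span 3404 bases, against 655 for Cyct, so the order per length was clearer: Cyct had 106 CPM per kb in BPA testis and 104 in control testis, and Cycs had 18.2 and 15.9. The ratio of Cyct over Cycs was 5.82 in BPA testis and 6.53 in control testis on the CPM per kb scale.

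How far Cyct exceeded Cycs depended on which length was used. On the log2 scale the mean ratio over both libraries was 2.62 with all annotated exons and 0.25 with the coding length, which is equal for the genes. The coding sequence of Cycs also occurs elsewhere in the genome: 100% of its 50-base words are found at other annotated loci, and 26.1% of the 50-base words over all its exons are. The locus that shares most of them is Gm10053 on chromosome 19, with 25.3% of the Cycs words, and the reads of Cycs are therefore uncertain. Cyct shares none of its 50-base words with another annotated gene, and the longest run that Cyct and Cycs have in common is 14 bases, so no 50-base word matches both.

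The promoters of the cytochrome c genes are shown because they hold different sequence motifs. Both windows run from 250 bases before to 50 bases after the RefSeq start site (GRCm38.p6), on the minus strand at chr2:76360404-76360703 for Cyct and at chr6:50566520-50566819 for Cycs. Capitals mark matches on either strand to the cAMP response element TGACGTCA, the NRF1 core GCATGCGC and the CCAAT box.

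Cyct: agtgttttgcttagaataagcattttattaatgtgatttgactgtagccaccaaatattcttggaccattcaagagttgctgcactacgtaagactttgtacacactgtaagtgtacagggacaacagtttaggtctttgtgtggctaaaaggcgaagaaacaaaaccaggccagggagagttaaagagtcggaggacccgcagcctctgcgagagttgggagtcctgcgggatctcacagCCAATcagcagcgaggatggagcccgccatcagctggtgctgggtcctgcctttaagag
Cycs: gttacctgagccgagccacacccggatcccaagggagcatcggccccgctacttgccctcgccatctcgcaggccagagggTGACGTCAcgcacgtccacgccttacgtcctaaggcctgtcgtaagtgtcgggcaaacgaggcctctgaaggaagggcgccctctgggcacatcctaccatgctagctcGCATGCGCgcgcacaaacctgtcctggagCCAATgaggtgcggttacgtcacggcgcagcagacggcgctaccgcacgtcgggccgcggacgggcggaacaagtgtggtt

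The Cycs window held 32 CpG dinucleotides and a GC content of 65.0%, and the Cyct window held 8 and 48.3%, where the median of 32851 promoters was 7 CpG. A cAMP response element began 169 bases before the Cycs start and an NRF1 core 60 bases before it. Of all promoters in the table, 1.79% held the first of these motifs and 2.71% the second. The Cyct window held neither and had a CCAAT box that began 9 bases before the start, as 37.4% of promoters do at some position. Of the 10 genes, 7 had a promoter in the table. Besides the cytochrome c genes, the Cox6b1 and Cox8a windows held 17 and 19 CpG, the Cox6b2 and Cox7b2 windows 10 each, and the Cox7b window 5. The GABP core CCGGAA was in neither cytochrome c window (14.9% of promoters hold it), and the GC box GGGCGG lay in the Cycs window (35.7% hold it). Both strands were searched, and the matches in these windows did not overlap. These matches describe letters and not binding.

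Subunit 6b lies on the outer side of the oxidase, facing the space where cytochrome c docks. Cox6b2 is its testis form and Cox6b1 its general form, and both genes lie on the minus strand of chromosome 7, Cox6b2 at chr7:4751792-4753094 and Cox6b1 at chr7:30616971-30626114. Their coding sequences are identical at 59.5% of aligned bases. The window printed here, coding bases 63 to 122 of Cox6b2 and 57 to 116 of Cox6b1 from the same GENCODE set, is the closest 60-base match without a gap, and capitals mark the 13 bases that differ.

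Cox6b2: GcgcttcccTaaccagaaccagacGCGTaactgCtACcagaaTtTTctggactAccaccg
Cox6b1: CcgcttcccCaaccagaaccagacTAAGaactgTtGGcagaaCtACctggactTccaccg

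Cox6b2 had 352 CPM (15989 reads) in BPA testis and 349 CPM (14576 reads) in control testis, and Cox6b1 had 21.1 CPM (959 reads) in BPA testis and 19.7 CPM (825 reads) in control testis. The testis form therefore gave 94.3% of the pair's reads in BPA testis (interval 94.0% to 94.7%) and 94.6% in control testis (interval 94.3% to 94.99%). On the CPM per kb scale Cox6b2 exceeded Cox6b1 10.7-fold in BPA testis and 11.3-fold in control testis. No 50-base word of either gene occurs at another annotated locus.

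Subunit 7b is a small membrane-spanning subunit. Its germ cell form Cox7b2 lies on the minus strand of chromosome 5 (chr5:71442823-71548205) and its general form Cox7b on the plus strand of the X chromosome (chrX:106015700-106022450). The X chromosome is silenced in male germ cells during meiosis, which is background here and was not measured. The coding sequences are identical at 65.4% of aligned bases, and the closest 60-base window, coding bases 178 to 237 of Cox7b2 and 172 to 231 of Cox7b, differs at the 14 bases in capitals.

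Cox7b2: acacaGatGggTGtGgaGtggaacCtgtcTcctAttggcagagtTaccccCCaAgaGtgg
Cox7b: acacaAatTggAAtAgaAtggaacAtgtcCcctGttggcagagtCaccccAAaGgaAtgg

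Cox7b2 had 115 CPM (5223 reads) in BPA testis and 125 CPM (5223 reads) in control testis. Cox7b had 7.49 CPM (340 reads) in BPA testis and 6.82 CPM (285 reads) in control testis. Cox7b2 gave 93.9% of the pair's reads in BPA testis (interval 93.2% to 94.5%) and 94.8% in control testis (interval 94.2% to 95.4%). Per kb it exceeded Cox7b 34.4-fold in BPA testis and 41.0-fold in control testis. The X-linked general form was the lowest in CPM per kb of the 9 genes listed above 0, at 6.17 in BPA testis and 5.62 in control testis.

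Subunit 8 is a single membrane helix with a cleaved targeting sequence. Cox8c, the testis form, lies on the plus strand of chromosome 12 (chr12:102899306-102900534), and Cox8a, the general form, on the minus strand of chromosome 19 (chr19:7215158-7217616). Their coding sequences matched least among the 5 pairs, at 49.8% of aligned bases. Cox8c had 296 CPM (13433 reads) in BPA testis and 289.6 CPM (12107 reads) in control testis. Cox8a had 27.3 CPM (1239 reads) in BPA testis and 27.8 CPM (1161 reads) in control testis. Cox8c gave 91.6% of the pair's reads in BPA testis (interval 91.1% to 92.0%) and 91.2% in control testis (interval 90.8% to 91.7%). Per kb the ratio over Cox8a was 14.7 in BPA testis and 14.1 in control testis.

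Subunit 4 is the largest of the nuclear-encoded subunits and binds ATP. The name germ cell isoform does not apply to this pair: Cox4i2 is known as the form of lung that is induced by low oxygen, and Cox4i1 is the general form. Cox4i2 (plus strand, chr2:152753916-152765039) was listed at 0 in both libraries, where values under 1 CPM are written as 0, and its deposited fold change gave 26 reads (0.573 CPM) in BPA testis and 17 reads (0.407 CPM) in control testis. Cox4i1 (plus strand, chr8:120668225-120674209) had 353 CPM (16013 reads) in BPA testis and 344 CPM (14382 reads) in control testis. Cox4i2 thus gave 0.162% of the pair's reads in BPA testis (interval 0.106% to 0.237%) and 0.118% in control testis (interval 0.0688% to 0.189%). Of the Cox4i1 exon bases, 154 overlap Emc8 on the other strand. At the subunit 4 position the general form was the abundant one.

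**Figure D2:**
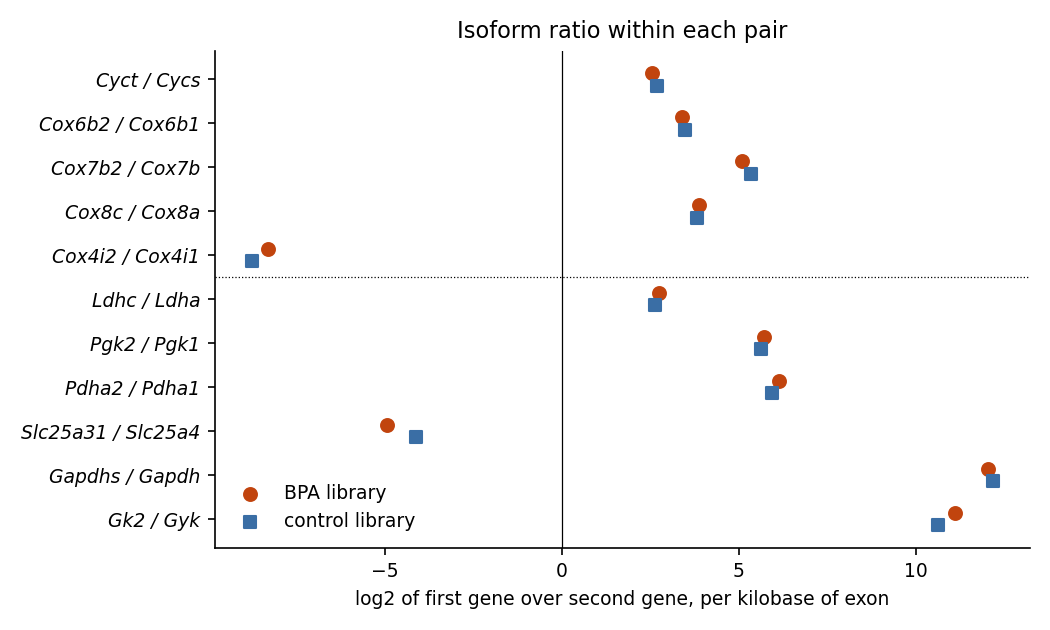
Ratio of each pair on the log2 scale of CPM per kb, with the first-named isoform over the second, in the BPA and the control library, for the 5 pairs followed and for 6 other pairs of germ cell and general isoforms. Cyct, Cox6b2, Cox7b2 and Cox8c lie above 0 against their partners and Cox4i2 lies below, in both libraries.

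Read against the rest of the enzyme, the general forms alone were low at the 3 positions that have a germ cell form. Summed over isoforms, the 7 other positions of the oxidase ranged from 49.5 CPM per kb at subunit 5a to 379.8 at subunit 6a in BPA testis. Shared sequence makes some of these levels uncertain, most of all Cox7c, with 22.1% of its 50-base words at other annotated loci. In the BPA library Cox6b1 alone reached 29.8, Cox7b 6.17 and Cox8a 44.1 CPM per kb, each below all 7, and with the germ cell forms added the positions reached 348, 219 and 690.5. In the control library the same genes alone reached 27.9, 5.62 and 44.9 CPM per kb against a range of 48.9 to 358 for the other positions, and with the germ cell forms 343, 236 and 677. The general forms alone also fell below the 7 other positions when levels were divided by the longest transcript or by the coding length. With both isoforms counted, the 10 positions spanned 13.9-fold in BPA testis and 13.8-fold in control testis, and subunit 8 was the highest in both.

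**Figure D3:**
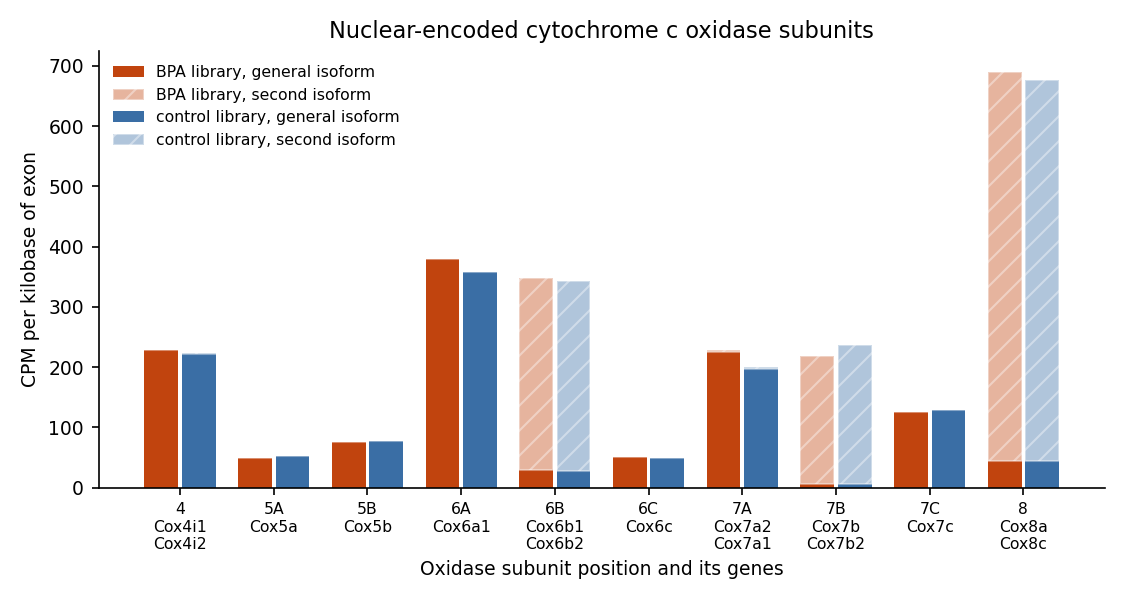
Level at each of the 10 nuclear-encoded positions of cytochrome c oxidase in CPM per kb on a linear axis, as stacked bars for the BPA and the control library, with the general isoform in solid colour at the bottom and the second isoform hatched on top. At subunits 6b, 7b and 8 the solid parts stay below the 7 other positions, and the full bars fall within or above their range.

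Against control, BPA-exposed testis held these genes at nearly the same levels. Of the 10, 9 reached 1 CPM in the higher library, and none of these 9 was 2-fold or more apart, where 3.28% of all 19389 genes at that floor were (1.32% were higher with BPA and 1.95% lower). With 0.1 CPM added to both values, the log2 ratios ran from -0.12 for Cox7b2 to 0.19 for Cycs. Above 0 lay 7 of the 9, beside 9875 of all 19389 genes at the floor. The median of the 9 was 0.03, beside 0.0041 over all genes at the floor. In the authors' deposited table no member was called, where 0.0956% of 29279 genes were, and the lowest deposited p-value among the 10 was 0.460, for Cycs.

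**Figure D4:**
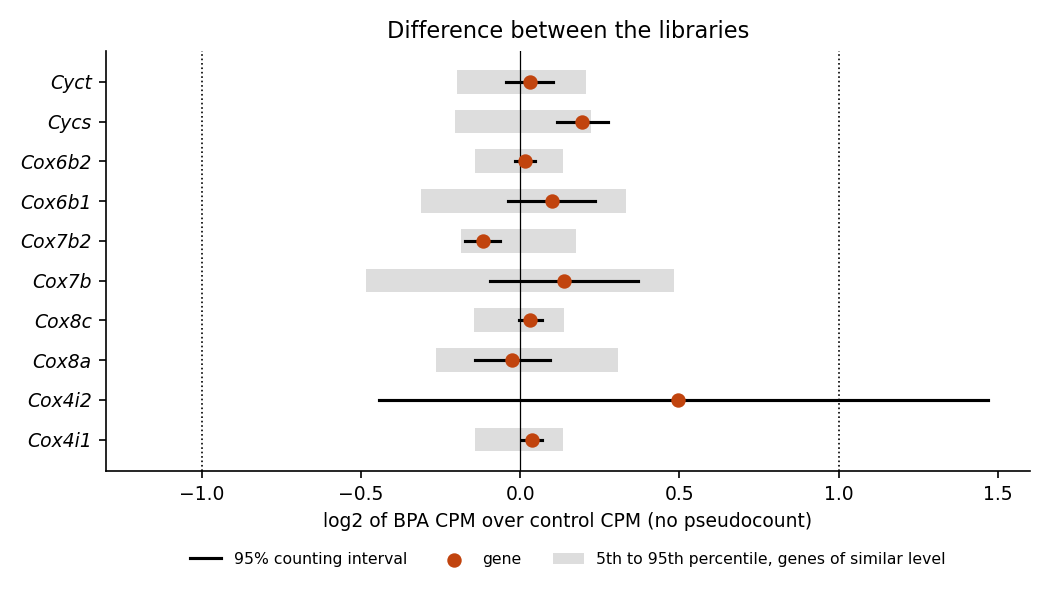
BPA over control on the log2 scale of CPM for each of the 10 genes, with no pseudocount, its counting interval as a bar, and a grey band from the 5th to the 95th percentile of all genes with a similar level. All 9 genes at the floor lie inside their band, and Cox4i2, with 26 and 17 reads, has an interval that spans 0.

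The interval from counting left out 1 for 3 of the 9 genes, Cycs, Cox7b2 and Cox4i1, where it did so for 43.1% of all genes at the floor and for 46.9% of genes averaging 5 CPM or more. Cycs was 1.14-fold higher in BPA testis (interval 1.08 to 1.21). Cox7b2 was 1.09-fold lower in BPA testis, a ratio of 0.921 (interval 0.886 to 0.957), and Cox4i1 was 1.03-fold higher (interval 1.003 to 1.05). For Cox4i1 this depended on the scaling: with the trimmed mean of log ratios its interval ran from 0.999 to 1.05, and with the median of ratios it also held 1, which left 2 of the 9. Each of the 9 lay within the middle range of genes of similar level: for Cycs, 5% to 95% of 3968 such genes covered log2 ratios of -0.21 to 0.22, and for Cox7b2, of 2798 genes, -0.19 to 0.18. These intervals leave out the spread between animals, which the libraries cannot give.

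For the remaining genes the interval held 1. Cyct had a ratio of 1.02 (interval 0.970 to 1.07), Cox6b2 of 1.01 (interval 0.988 to 1.03) and Cox8c of 1.02 (interval 0.997 to 1.05). Among general forms, the ratio was 1.07 for Cox6b1 (interval 0.975 to 1.18), 1.10 for Cox7b (interval 0.936 to 1.29) and 0.983 for Cox8a (interval 0.907 to 1.07). With so few reads, Cox4i2 allowed anything between 0.736 and 2.77 around its ratio of 1.41.

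The balance between isoforms was compared as the ratio of each pair in BPA testis over the same ratio in control testis, a quantity that needs no gene length. It was 0.892 for Cyct over Cycs (interval 0.827 to 0.962) and 0.838 for Cox7b2 over Cox7b (interval 0.710 to 0.989), so in these 2 of the 5 pairs the interval lay below 1. Among 6 other germ cell isoform pairs described further on, the interval left out 1 in 2 as well, above 1 for Ldhc over Ldha at 1.07 (interval 1.06 to 1.09) and below 1 for Slc25a31 over Slc25a4 at 0.567 (interval 0.391 to 0.819). For Cox6b2 over Cox6b1 it was 0.944 (interval 0.856 to 1.04), for Cox8c over Cox8a 1.04 (interval 0.955 to 1.13), and for Cox4i2 over Cox4i1 1.37 (interval 0.717 to 2.70). Markers of the cell types in testis differed to varying degrees between the libraries. Their log2 ratios above 0 are counted below, where 9875 of all 19389 genes at the floor lay above 0. The summed level of 7 Sertoli cell markers was 1000.2 CPM in BPA testis and 866 CPM in control testis, and 7 of 7 had a log2 ratio above 0. Clu alone gave 816 CPM of this sum in BPA testis and 718 CPM in control testis. Leydig cell markers summed to 821 CPM in BPA testis and 736 CPM in control testis, also with 7 of 7 above 0. Most of the Leydig sum came from Cyp17a1, at 323 and 301 CPM, and Cyp11a1, at 256 and 246 CPM. No marker of either cell type was at 0. Of 3 peritubular and smooth muscle markers at the floor 3 lay above 0, of 4 endothelial markers 2, and of 3 macrophage markers 1. Spermatogonia markers summed to 60.7 CPM in BPA testis and 54.7 CPM in control testis, with 5 of 6 above 0. Spermatocyte markers summed to 935 CPM in BPA testis and 924 CPM in control testis, and round spermatid markers to 1006 and 1034 CPM. Elongating spermatid markers summed to 17039.7 CPM in BPA testis and 15985 CPM in control testis. Of 6 spermatocyte markers 4 lay above 0, of 5 round spermatid markers 2, and of 6 elongating spermatid markers 4. Tnp2 had 6120 CPM in BPA testis and 5257 CPM in control testis, and Prm1 had 1762 and 1463 CPM. Tnp1 was lower with BPA, at 2700 and 2834 CPM, and so was Odf1, at 1550 and 1608 CPM. The part of these cell types in the pair ratios was not tested.

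Fat markers set the libraries further apart. Of 8 adipocyte genes, 6 were 2-fold or more lower in BPA testis, namely Fabp4, Cidec, Cfd, Car3, Lep and Retn, and the listed values of all 8 summed to 25.4 CPM in BPA testis and 85.2 CPM in control testis. Fabp4, a fatty acid carrier, had 2.07 CPM in BPA testis and 24.4 CPM in control testis. The fall was not shared by all 8. Adipoq had 15.4 CPM in BPA testis and 17.2 CPM in control testis, and Plin1 had 4.47 and 4.88 CPM. None of the markers is a member, and their part in the member values was not tested. Of 5 epididymis markers 3 were listed at 0 in both libraries and none was listed above 0, and of 5 skeletal muscle markers 4 (Acta1, Ckm, Myh4 and Mb) were listed at 0 in both.

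Of the 11 other oxidase subunit genes, 9 were at the floor, none was 2-fold or more apart, and their median log2 ratio was 0.08. Cox7a2, the general form of subunit 7a, had 212 CPM in BPA testis and 185 CPM in control testis, a ratio of 1.14 (interval 1.11 to 1.18). Its log2 ratio of 0.19 lay above the 5% to 95% range of genes of similar level, -0.16 to 0.15. The muscle partner of Cox7a2, Cox7a1, had 2.20 CPM in BPA testis and 2.08 CPM in control testis. Subunit 6a showed the same order, with 267 CPM in BPA testis and 252 CPM in control testis for the general Cox6a1, and the muscle form Cox6a2 listed at 0 in both. The matrix-facing subunits were close too: Cox5a had 104 CPM in BPA testis and 109 CPM in control testis, and Cox5b had 119 and 124 CPM. Cox6c had 181 CPM in BPA testis and 174.5 CPM in control testis, Cox7c 142 and 145.5 CPM, Cox7a2l, which takes part in respiratory supercomplexes, 66.2 and 60.6 CPM, and Ndufa4, a loosely bound subunit, 20.6 and 19.5 CPM. No value was given for Cox8b, a muscle form of subunit 8. Part of the 50-base words of Cox7c (22.1%), Cox7a2l (13.8%), Cox5b (11.9%) and Cox6a1 (9.16%) occurs at other annotated loci. The values of these genes are therefore less certain.

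Genes that build the oxidase and that feed or attach cytochrome c were also within 2-fold. Of 27 assembly genes, 25 were at the floor, 0 were 2-fold apart in either direction, and the median log2 ratio was -0.01 with 11 above 0. Cox20, a chaperone of the second core subunit, had 11.5 CPM in BPA testis and 17.2 CPM in control testis, a log2 ratio of -0.58. Pet100, an assembly factor, had 19.8 and 28.6 CPM, a log2 ratio of -0.53, and Coa6, which helps insert copper, had 10.5 and 8.37 CPM, a log2 ratio of 0.33. Cox20 and Pet100 lay below the 5% to 95% range of genes of similar level (from -0.35 and -0.28), and Coa6 inside it (to 0.43). All 3 share exon bases with a gene on the other strand (Hnrnpu, Pcp2 and Tarbp1), and since no strand step was described, reads from the overlaps cannot be told apart.

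Among 12 genes of the cytochrome bc1 complex and of heme attachment, all 12 were at the floor, 0 were 2-fold apart, the median log2 ratio was 0.07 and 10 lay above 0. The core subunit Uqcrc1 had 4.87 CPM in BPA testis and 3.71 CPM in control testis, and Bcs1l, which inserts the iron-sulfur subunit, had 6.21 and 4.86 CPM. The iron-sulfur subunit Uqcrfs1 had 84.3 CPM in BPA testis and 95.9 CPM in control testis, a log2 ratio of -0.19. Hccs, the X-linked enzyme that attaches heme to cytochrome c, had 6.52 CPM in BPA testis and 6.15 CPM in control testis, but 1335 of its exon bases overlap Arhgap6 on the other strand.

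Other enzymes of energy metabolism have germ cell forms as well, and 6 such pairs were set beside the 5 followed. The germ cell form was the higher one per kb in 5 of 6. Mean log2 ratios over both libraries were 2.69 for lactate dehydrogenase (Ldhc over Ldha), 5.67 for phosphoglycerate kinase (Pgk2 over Pgk1), 6.04 for the pyruvate dehydrogenase alpha subunit (Pdha2 over Pdha1), 12.10 for glyceraldehyde-3-phosphate dehydrogenase (Gapdhs over Gapdh) and 10.87 for glycerol kinase (Gk2 over Gyk). The exception was the ADP/ATP carrier, where Slc25a31 stood at -4.52 against Slc25a4, with 1.19 CPM in BPA testis and 1.87 CPM in control testis for Slc25a31 and 39.95 and 35.5 CPM for Slc25a4. By this measure the cytochrome c pair, at 2.62, lay nearest to lactate dehydrogenase, and the Cox6b, Cox8 and Cox7b pairs, at 3.46, 3.85 and 5.23, between lactate dehydrogenase and phosphoglycerate kinase. The near match with lactate dehydrogenase depended on the length. With the coding length, Ldhc over Ldha was 1.75 and Cyct over Cycs 0.25.

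The general partner is X-linked in 3 of these 6 pairs (Pgk1, Pdha1 and Gyk) and in 1 of the 5 followed (Cox7b), and in all of them the germ cell form is autosomal. Pgk1 had 18.5 CPM in BPA testis and 18.6 CPM in control testis, and 53.9% of its 50-base words occur at other annotated loci, so its value is uncertain. Pdha1 had 4.47 CPM in BPA testis and 4.95 CPM in control testis, and Gyk had 1.08 and 1.65 CPM. Gapdh was listed at 0 in both libraries although it is active in nearly every cell, and its deposited fold change gave 45 reads in BPA testis and 37 in control testis. Of its 50-base words 24.7% occur at other annotated loci, so the ratio of Gapdhs over Gapdh is uncertain. Of these 12 genes 11 were at the floor, and 0 were 2-fold or more apart between BPA and control.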

How the data were processed

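Per the labels' protocols, Trizol was used for testis RNA, oligo(dT) beads for poly(A) enrichment and random hexamers for cDNA, with no strand step described. The submitters' processing notes name HISAT2 2.0.4, HTSeq 0.6.1 and mm10. The annotation, strand setting, scaling, test program and treatment of reads that match several loci remain not given in the sources used here. A table was deposited by the authors with 1 CPM value per library for 44002 rows, under column headings that say read count. Values under 1 are written as 0, and 10618 rows lack a value. The deposited log2 fold changes are BPA over control. The deposited p-values and q-values are the authors' own and come from 1 library per group.

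Each CPM above 0 was a whole multiple of 1 step per library (0.0220 in BPA testis and 0.0239 in control testis), within 2.33e-10 of a step, and the step was taken as 1 read. No deposited read numbers were used, values under 1 CPM could not be checked directly, and all read numbers and counting intervals rest on this reading. Listed values added up to 45162887 reads in BPA testis and 41711330 in control testis. Where 1 library was listed at 0, the fold change gave its value (812 in BPA testis and 592 in control testis), and for Cox4i2 and Gapdh, listed at 0 in both, it left 1 possible pair of read numbers under 1 CPM, as for 1791 of 9897 such rows.

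Log2 ratios carry 0.1 CPM on both sides, and genes count from 1 CPM in the higher library. Exact binomial (Clopper-Pearson) intervals were used for shares and for the BPA over control ratio of a gene. For the change of a pair's ratio, the exact conditional interval of the odds ratio of its read numbers was used. Exon lengths and coordinates came from GENCODE M21 (GRCm38, the build mm10) and promoters from RefSeq. Windows of 60 coding bases were the closest ungapped match within a pair. With 1 library per group no test was run. The members, gene lists and comparisons were chosen with earlier results of these data known. Named genes were all members, all other oxidase subunits and isoform pairs, and in the other lists the 3 largest log2 ratios in size and any gene 2-fold apart; Hccs was added after its values were seen, and 1 gene that the rule names is not reported here. Alternatives were other lengths, floors, pseudocounts, folds and scalings. Python 3.11.15, pandas 2.3.3, scipy 1.17.1 and Biopython 1.88 were used.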

Additional observations from a re-analysis of the deposited data

How the results depend on the processing

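No paired analysis was possible because each group has 1 library, and for the same reason no library could be left out. For the members, none was 2-fold apart under any alternative tried that gave a value, and no member's ratio or pair change moved by more than its counting interval. The number of members whose interval left out 1 was 3 as deposited and 2 under both other scalings, which lost Cox4i1 (chosen after seeing the data). The number of all genes 2-fold apart was 635; it was 205 with 1 CPM added, 183 with a floor of 4 CPM, 1623 with listed zeros taken as 0, 1870 at 1.5-fold and 4520 with no floor. Rescaling shifted all log2 ratios by at most 0.0054.

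The log2 isoform ratios per length kept their direction under each length tried. With the longest transcript, the coding length and no length they were 2.50, 0.25 and 0.25 for Cyct over Cycs (2.62 with all exons), 4.18, 3.83 and 4.10 for Cox6b2 over Cox6b1 (3.46), 4.95, 4.03 and 4.07 for Cox7b2 over Cox7b (5.23), 3.67, 3.35 and 3.41 for Cox8c over Cox8a (3.85), and -9.43, -9.52 and -9.50 for Cox4i2 over Cox4i1 (-8.52). As an alternative chosen after seeing the data, the length was replaced by the number of 50-base words found at no other locus. This gave 2.28 for Cyct over Cycs, 3.24 for Cox6b2 over Cox6b1 and 4.0 for Cox8c over Cox8a. For Cox7b2 over Cox7b it gave 5.30, and for Cox4i2 over Cox4i1 -8.31. All reads of each gene were kept, so reads from shared sequence were not removed. Read counting limits Cox4i2 most, and the spread between animals was not measured.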

Other observations

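Genes that control the release of cytochrome c from mitochondria or act after it were compared as well. Of 12 such genes 11 were at the floor of 1 CPM, 0 were 2-fold or more apart, and the median log2 ratio of BPA over control was -0.03 with 4 above 0. Xiap, an inhibitor of caspases, had 10.2 CPM in BPA testis and 8.11 CPM in control testis, a log2 ratio of 0.33. Apaf1, which binds cytochrome c, had 3.72 CPM in BPA testis and 4.19 CPM in control testis. Bcl2, which keeps the outer mitochondrial membrane closed, was listed at 0 in both libraries.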
